A study of Mus musculus with 6 samples.

Results

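The genes described here are 10 markers of resting and adventitial fibroblasts: Tcf21, Pi16, Cd248, Cd34, Dpep1, Scara5, Dpt, Clec3b, Smoc2 and Gsn. They were taken by name, all 10 were among the 42256 genes of the count table, and all 10 passed the filter on low counts that left 15840 genes. RNA was measured in PDGFRa+ cells, a fibroblast-like fraction that was sorted by flow cytometry from the dissected scar of mouse hearts. The tested mice were Htr2bfl/flPostnMCM/+, called Htr2b_cKO here (4 libraries), with the serotonin receptor gene Htr2b floxed and a tamoxifen-inducible Cre at the Postn locus. The control mice were Htr2bfl/fl (2 libraries), with the floxed gene and no Cre. All mice were of a mixed 129S2/C57Bl6 strain, ate tamoxifen chow from 1 week before injury onward, and were taken 7 days after injury, a myocardial infarction. Their age is not given in the sources used here. The controls lacked the Cre, so what the Cre or its insertion at Postn does and what the deletion does cannot be told apart. The Cre is driven by Postn, which activated fibroblasts switch on, so cells that never expressed Postn would keep the receptor.

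Fibroblasts of the uninjured heart lie between the muscle cells and in the adventitia, the outer sheath of blood vessels. The resting state is marked by the transcription factor gene Tcf21 and by genes of a soft, secreted matrix. A progenitor-like adventitial state, found in many organs, is marked by Pi16 and Cd34. After an infarct these cells divide, switch on Postn and turn into matrix-producing myofibroblasts, and resting markers are known to decline in the scar. The comparison asks how removing Htr2b from Postn-expressing cells alters scar fibroblasts, and these genes address whether the balance between resting and activated states differs.

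Library totals ran from 28533427 to 37392496 estimated counts. Htr2b was at 0 to 29 counts per library. The library labelled Htr2b_cKO 3 had the highest Htr2b count, 29, above the 13 and 7 of control 1 and 2, the reverse of what its label implies. Htr2b_cKO 1, 2 and 4 had 0, 3 and 4 counts, below both controls. Between the groups Htr2b was not called (log2 fold change -0.11, SE 1.18, edgeR adjusted p = 0.9825). That fit includes the library labelled Htr2b_cKO 3, so it cannot bear on that library's label. The counts were low, and whether any label is right or wrong was not tested. Htr2b_cKO 4 was the only male library, with 0.267 CPM of Xist against 385 CPM or more in every other library. Both libraries were kept, and fits without them were run as alternatives. Levels are given as CPM, the gene's read count scaled to the TMM-adjusted library total. The cells were sorted on the product of Pdgfra, which averaged 899 ± 204 CPM in Htr2b_cKO (SD, n = 4) and 984 ± 357 CPM in control (SD, n = 2).

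Promoters are shown as a description only. Tcf21 itself encodes a DNA-binding factor, and whether it acts on the other markers was not tested. RefSeq windows on GRCm38.p6, from 250 bases before to 50 bases after an annotated start, were matched for 6 of the 10 genes. The motif CAGCTG is an E-box, the kind of site that basic helix-loop-helix factors such as TCF21 bind. It is its own reverse complement, and it was found in 5 of the 8 windows of these 6 genes (2 of Gsn and 1 each of Dpt, Pi16 and Dpep1) and in 16.3% of all 32851 promoter windows of this length. Of the other motifs searched on both strands, TGANTCA and CAGACA were in none of the 8 windows of these genes. Of all windows, 7.81% held TGANTCA and 21.04% held CAGACA. The window of Dpep1 held GGAATG, as did 14.7% of all windows. That of Dpt held TATAAA, found in 13.6% of all windows. The 4 windows below run 5′ to 3′ on the gene's strand and have any CAGCTG in capitals. Tcf21 (chr10:22820094-22820393, minus strand) has no match, Dpt (chr1:164796413-164796712, plus strand) has 2, and Pi16 (chr17:29318632-29318931, plus strand) has 1. The RefSeq start used for Pi16 lies downstream of the gene start given below (29317680), so its window falls inside that gene. Gsn has 3 annotated windows, of which the first (chr2:35256109-35256408, plus strand) is shown with its 1 match.
Tcf21: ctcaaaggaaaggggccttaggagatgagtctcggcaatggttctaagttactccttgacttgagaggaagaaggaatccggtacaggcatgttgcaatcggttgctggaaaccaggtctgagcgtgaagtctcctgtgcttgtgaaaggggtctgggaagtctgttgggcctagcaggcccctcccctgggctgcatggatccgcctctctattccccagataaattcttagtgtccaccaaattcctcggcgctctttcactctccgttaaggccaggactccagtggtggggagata
Dpt: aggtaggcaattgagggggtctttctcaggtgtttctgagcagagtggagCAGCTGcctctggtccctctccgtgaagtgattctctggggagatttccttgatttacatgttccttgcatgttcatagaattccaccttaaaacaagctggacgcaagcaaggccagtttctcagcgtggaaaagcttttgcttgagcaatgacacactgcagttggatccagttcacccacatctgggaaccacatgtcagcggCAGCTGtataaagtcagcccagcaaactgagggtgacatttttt
Pi16: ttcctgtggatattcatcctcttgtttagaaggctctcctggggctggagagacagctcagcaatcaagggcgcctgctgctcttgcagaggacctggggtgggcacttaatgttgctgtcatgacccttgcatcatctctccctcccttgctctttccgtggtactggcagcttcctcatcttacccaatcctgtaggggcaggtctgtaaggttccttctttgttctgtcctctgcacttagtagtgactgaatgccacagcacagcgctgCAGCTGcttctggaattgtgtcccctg
Gsn: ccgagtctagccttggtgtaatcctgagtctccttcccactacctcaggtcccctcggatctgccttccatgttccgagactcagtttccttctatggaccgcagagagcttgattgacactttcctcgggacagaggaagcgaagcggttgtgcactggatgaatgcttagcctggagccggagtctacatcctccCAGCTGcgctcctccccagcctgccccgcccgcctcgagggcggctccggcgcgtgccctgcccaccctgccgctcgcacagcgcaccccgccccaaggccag
A match describes these letters only and is not evidence that a factor binds there.

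None of the 10 markers passed the test between Htr2b_cKO and control. In edgeR's quasi-likelihood test 0 of 10 had an adjusted p under 0.05, and 0.0189% of all tested genes were called (0.0126% higher and 0.00631% lower in Htr2b_cKO). DESeq2 and limma voom also called 0 of 10. Over all genes they tested, DESeq2 called 0.647% and limma voom called 2 genes. No marker had an unadjusted p under 0.05 in the edgeR test, against 9.59% of all tested genes. The Htr2b_cKO libraries overlapped the control libraries for each of the 10, while 19.6% of all tested genes had groups that did not overlap. Of the 10, 5 had a log2 fold change above 0 and 5 below, with a median of -0.00452 beside -0.000125 over all tested genes. That balance depended on single libraries: 2 were above 0 and 8 below without the library labelled Htr2b_cKO 3 and again without control 2, and 8 were above and 2 below without control 1. The estimates ran from -0.25 for Scara5 to 0.33 for Tcf21, with intervals of 2 SEs on each side. The widest interval, that of Smoc2, held values from -1.20 to 1.31, and the narrowest, that of Dpt, values from -0.17 to 0.71. Each interval gives differences that these data, with 2 control libraries, do not exclude. In a sorted bulk sample, fewer cells of a type and less RNA per cell cannot be told apart.

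All 10 markers were well covered, from 723 counts of Tcf21 in control 2 to 204701 counts of Gsn in the library labelled Htr2b_cKO 3. On a per-length scale, as CPM per kilobase of exon averaged over the 6 libraries, the level was 1285 for Gsn and 657 for Dpt. It was 267 for Clec3b, 203 for Cd248 and 98.2 for Cd34. It was 65.6 for Pi16, 64.6 for Dpep1, 36.8 for Smoc2, 23.5 for Tcf21 and 21.04 for Scara5. On the same scale Postn stood at 193 and the sorting marker Pdgfra at 92.6. The lowest library of Dpt (516) lay above the highest of Clec3b (456), and the lowest of Cd248 (147) above the highest of Cd34 (137). Every other pair of neighbours in this order overlapped between libraries.

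**Figure D1:**
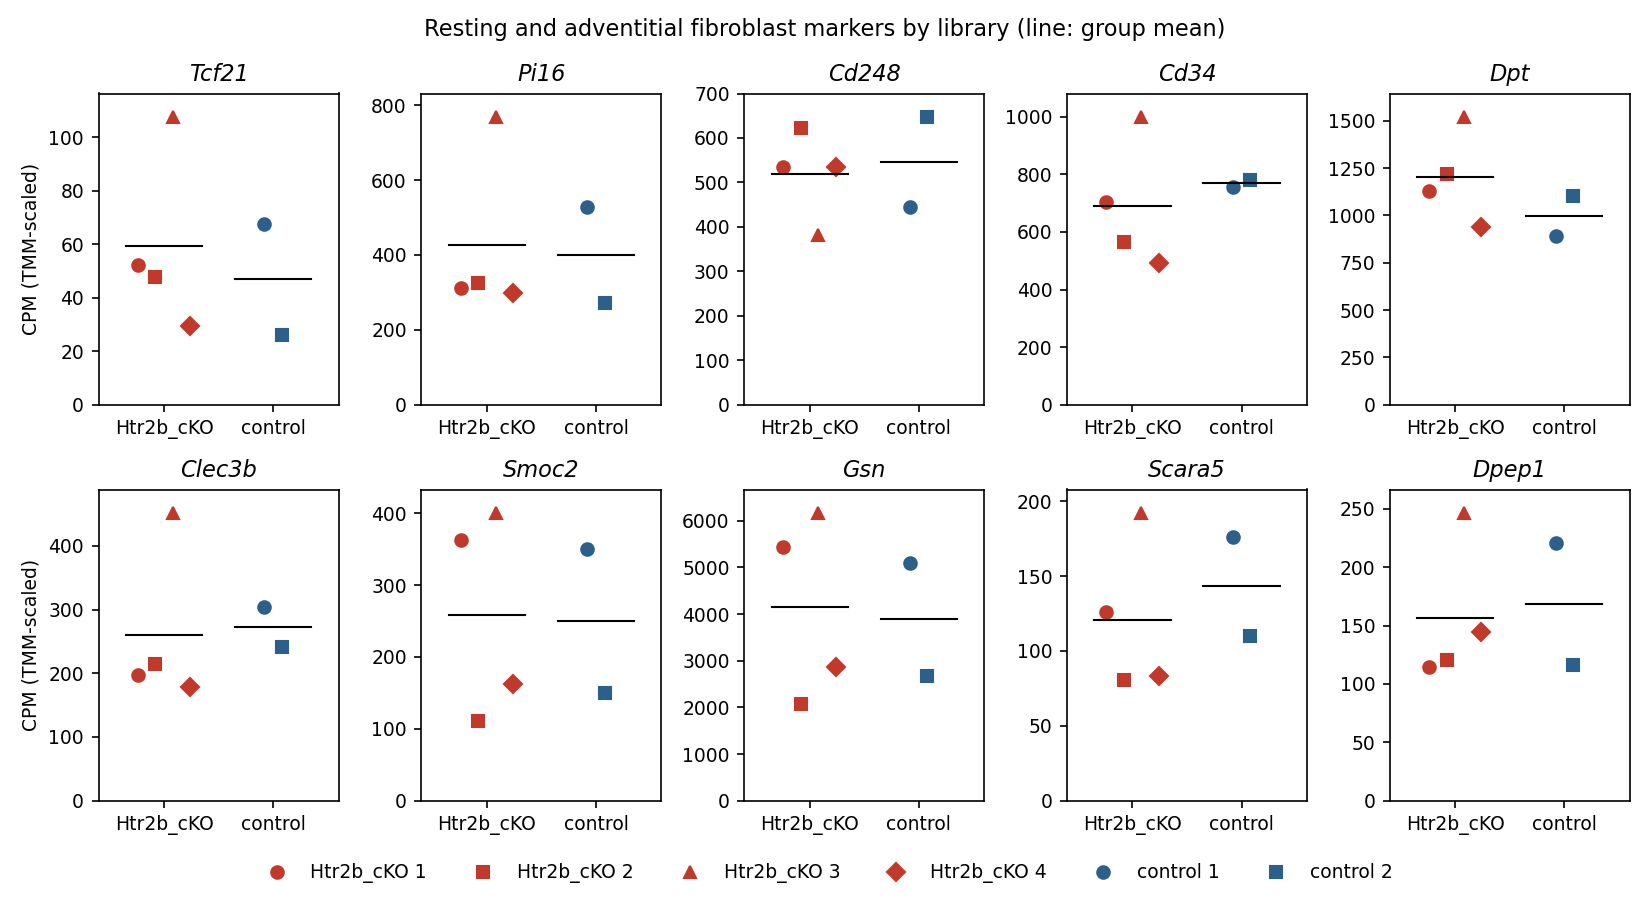
CPM of each marker (y axes, TMM-scaled, each starting at 0) in the 4 Htr2b_cKO libraries and the 2 control libraries, 1 point per library with the group mean as a line. The library labelled Htr2b_cKO 3 is the highest point for every gene except Cd248, and the groups overlap in all 10 panels.

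Tcf21 (ENSMUSG00000045680, chromosome 10 from 22817281 to 22820174 in mm10, minus strand, with the other 9 genes on the plus strand) encodes a basic helix-loop-helix transcription factor that cardiac fibroblasts need to form and keep expressing at rest. It had 52.2, 47.6, 107.8 and 29.5 CPM in Htr2b_cKO 1 to 4, against 67.7 and 26.1 CPM in control 1 and 2. Its highest and its lowest values lay 4.12-fold apart, the widest spread of the 10, with the library labelled Htr2b_cKO 3 at the top and control 2 at the bottom. The means were 59.3 ± 33.8 CPM in Htr2b_cKO (SD, n = 4) and 46.9 ± 29.4 CPM in control (SD, n = 2). The estimate from edgeR was 0.33 (log2, SE 0.61, adjusted p = 0.896), with an interval of 2 SEs from -0.88 to 1.55. The 2 control libraries differed by 2.59-fold, more than the group means did. Leaving out control 1 gave 1.18 and leaving out control 2 gave -0.18, and with the library labelled Htr2b_cKO 3 left out it was -0.12.

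Of the cell-surface markers, Pi16 and Cd34 label the adventitial progenitor-like state. Pi16 (ENSMUSG00000024011, chromosome 17 from 29317680 to 29330593) encodes peptidase inhibitor 16, a member of the CAP protein family. It had 313, 324, 769.7 and 298.5 CPM in Htr2b_cKO 1 to 4, against 528 and 271 CPM in control 1 and 2. The library labelled Htr2b_cKO 3 and, less so, control 1 stood above the other 4 libraries, which lay close together. The means were 426 ± 229 CPM in Htr2b_cKO (SD, n = 4) and 399.6 ± 181.7 CPM in control (SD, n = 2), a difference that edgeR put at 0.09 (log2, SE 0.48, adjusted p = 0.969). It was -0.35 with the library labelled Htr2b_cKO 3 left out, 0.65 without control 1, and -0.30 without control 2.

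Cd34 (ENSMUSG00000016494, chromosome 1 from 194938819 to 194961279) encodes a sialomucin that endothelial cells and blood progenitors carry as well as stromal cells. It had 702, 565, 1001 and 491 CPM in Htr2b_cKO 1 to 4, against 758 and 779 CPM in control 1 and 2. The controls were almost equal, and 3 of the 4 Htr2b_cKO libraries were below both of them. In the edgeR fit Cd34 was at -0.16 (log2, SE 0.27, adjusted p = 0.886), and at -0.38 without the library labelled Htr2b_cKO 3 (adjusted p = 0.43). Cd34 and Dpt were the 2 markers whose direction held when any 1 library was left out. The 9 endothelial markers, summed, were at 52.6 to 99.3 CPM in Htr2b_cKO and at 283 and 54.9 CPM in control 1 and 2, and all 9 were highest in control 1. The part of endothelial RNA in the Cd34 values was not tested.

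Cd248, Dpep1 and Scara5 also encode proteins of the cell surface. Cd248 (ENSMUSG00000056481, chromosome 19 from 5068078 to 5070682) encodes endosialin, a glycoprotein of stromal cells and pericytes. It had 534, 622, 382 and 536 CPM in Htr2b_cKO 1 to 4, against 445 and 648 CPM in control 1 and 2. Unlike the other 9 markers it was lowest in the library labelled Htr2b_cKO 3 and highest in control 2, and so was Pdgfra (668 CPM in the library labelled Htr2b_cKO 3 and 1237 CPM in control 2). The fitted difference was -0.08 (log2, SE 0.23, adjusted p = 0.940 in edgeR), -0.32 without control 1 and 0.23 without control 2.

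Dpep1 (ENSMUSG00000019278, chromosome 8 from 123186242 to 123201812) encodes a membrane dipeptidase. It had 114.5, 121, 247 and 144.5 CPM in Htr2b_cKO 1 to 4, against 221 and 116 CPM in control 1 and 2. The library labelled Htr2b_cKO 3 and control 1 stood above the other 4 libraries. For Dpep1 edgeR gave -0.11 (log2, SE 0.38, adjusted p = 0.951), 0.43 without control 1 and -0.49 without control 2. The annotated gene Gm20388 overlaps Dpep1 on the same strand and was given up to 51.9 CPM, so how reads were divided between them is uncertain. The genes annotated antisense to Dpt (Gm32569) and Cd34 (Gm16897) were given at most 0.181 and 0.145 CPM.

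Scara5 (ENSMUSG00000022032, chromosome 14 from 65666403 to 65764826) encodes a scavenger receptor that takes up ferritin. It had 126, 80.8, 192 and 83.6 CPM in Htr2b_cKO 1 to 4, against 176 and 109.9 CPM in control 1 and 2. Here 2 of the 4 Htr2b_cKO libraries fell under both controls and 1 lay above both. Its difference in the edgeR fit was -0.25 (log2, SE 0.39, adjusted p = 0.874), the lowest of the 10. It was -0.56 without the library labelled Htr2b_cKO 3 (adjusted p = 0.451), -0.54 without control 2 and 0.13 without control 1.

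The other 4 markers encode proteins that are secreted or have a secreted form. Dpt (ENSMUSG00000026574, chromosome 1 from 164796644 to 164824266) encodes dermatopontin, a small matrix protein that binds decorin and collagen. It had 1128, 1218, 1522 and 936 CPM in Htr2b_cKO 1 to 4, against 889.9 and 1103 CPM in control 1 and 2. All 4 Htr2b_cKO libraries were above control 1 and 3 of them above control 2, so the groups overlapped through Htr2b_cKO 4. The means were 1201 ± 244 CPM in Htr2b_cKO (SD, n = 4) and 996 ± 151 CPM in control (SD, n = 2). The edgeR estimate was 0.27 (log2, SE 0.22, adjusted p = 0.722), with the smallest unadjusted p of the 10 in that fit and an interval of 2 SEs from -0.17 to 0.71. It was 0.12 without control 1 and 0.44 without control 2.

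Clec3b (ENSMUSG00000025784, chromosome 9 from 123150946 to 123157432) encodes tetranectin, a secreted lectin that binds plasminogen. It had 198, 214, 452 and 178 CPM in Htr2b_cKO 1 to 4, against 304 and 241 CPM in control 1 and 2. The library labelled Htr2b_cKO 3 was above both controls and the other 3 were below both. From edgeR the difference was -0.06 (log2, SE 0.39, adjusted p = 0.973). It was -0.46 with the library labelled Htr2b_cKO 3 left out (adjusted p = 0.327), which was the lowest adjusted p of any marker under any of the 17 alternatives and the 1 value among the 10 with an unadjusted p under 0.05 there (0.0218).

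Smoc2 and Gsn shared an order of libraries that differed from the rest. Smoc2 (ENSMUSG00000023886, chromosome 17 from 14279506 to 14404790) encodes a secreted, calcium-binding matricellular protein. It had 362, 110.2, 401 and 163 CPM in Htr2b_cKO 1 to 4, against 349.9 and 149 CPM in control 1 and 2. Gsn (ENSMUSG00000026879, chromosome 2 from 35256380 to 35307892) encodes gelsolin, which severs actin filaments and also has a secreted form. It had 5437, 2080, 6177 and 2876 CPM in Htr2b_cKO 1 to 4, against 5091 and 2678 CPM in control 1 and 2. For both genes Htr2b_cKO 1, the library labelled Htr2b_cKO 3 and control 1 formed a high set and Htr2b_cKO 2, Htr2b_cKO 4 and control 2 a low set, which split both genotypes. Htr2b_cKO 1 was not high for Pi16, Clec3b or Dpep1. The estimates were 0.05 for Smoc2 (log2, SE 0.63, edgeR adjusted p = 0.984) and 0.09 for Gsn (SE 0.49, adjusted p = 0.969). Without control 1 they were 0.79 and 0.63, and without control 2 they were -0.43 and -0.29. Counts per gene do not separate the secreted from the cytosolic form of gelsolin.

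**Figure D2:**
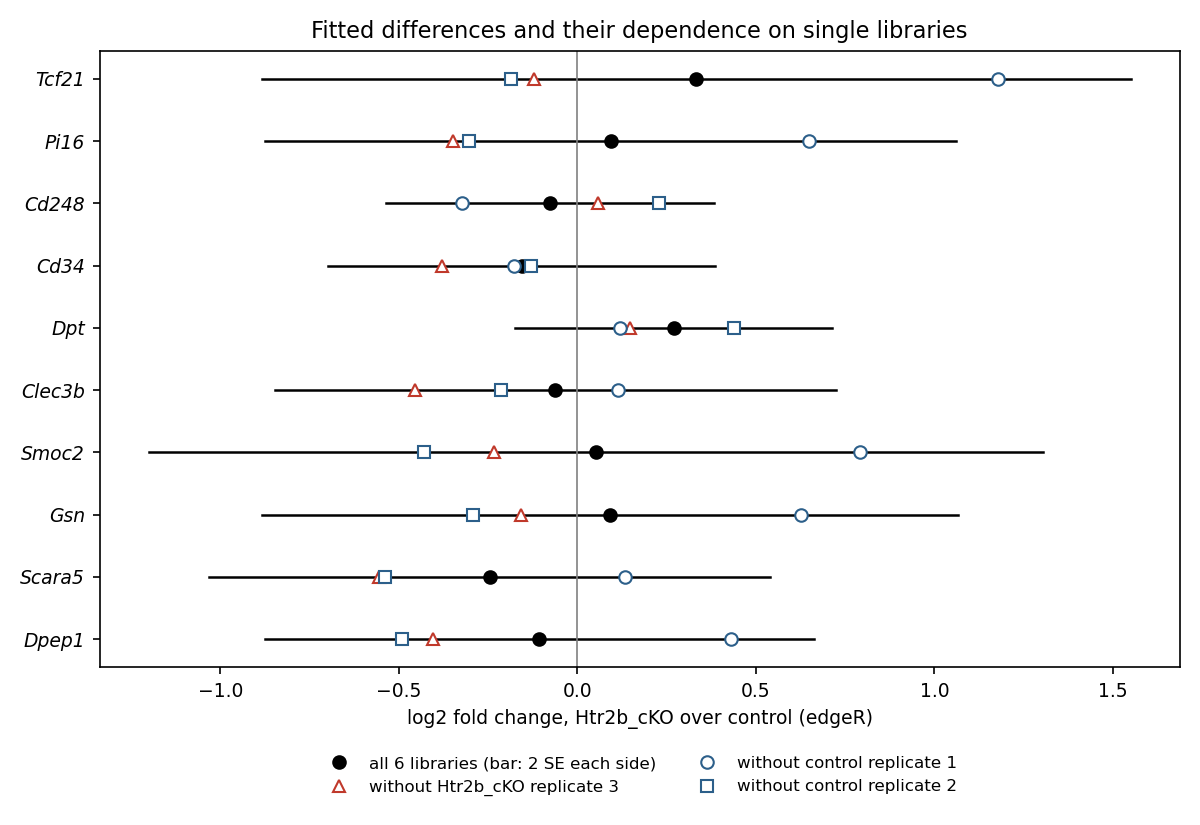
Log2 fold change of each marker, Htr2b_cKO over control, from the edgeR fit on all 6 libraries (filled points, bars of 2 SE on each side) and from fits that left out the library labelled Htr2b_cKO 3, control 1 or control 2 (open symbols). Every bar crosses 0, and leaving out control 1 or control 2 puts 8 of the 10 estimates on opposite sides of 0.

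The markers varied between libraries of the same genotype. The median ratio of the highest to the lowest library was 2.46 for the 10 markers, beside 1.70 for all tested genes and 1.498 for the 9440 tested genes with a mean of 10 CPM or more. It was 2.43 for the 16 activated fibroblast genes and 2.03 for each of the 2 other resting lists, so a wide spread was not particular to the 10 markers. The controls differed by a median absolute log2 ratio of 0.80 over the 10 markers, beside 0.21 over those 9440 genes, and 7 of the 10 were higher in control 1. The library labelled Htr2b_cKO 3 was the highest for 9 of the 10, and it was the highest for 20.1% of all tested genes. Control 1 came second for 5 of the 10. Relative to each gene's mean over libraries, the median marker was at 0.03, -0.28, 0.71 and -0.43 on the log2 scale in Htr2b_cKO 1 to 4 and at 0.45 and -0.27 in control 1 and 2.

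Macrophage transcripts were also highest in the library labelled Htr2b_cKO 3 and in control 1, while Htr2b_cKO 2, which came next, was low for most of the markers. The 9 macrophage genes, summed, were at 817, 2164, 4203 and 327 CPM in Htr2b_cKO 1 to 4 and at 2567 and 769.5 CPM in control 1 and 2. All 9 were highest in the library labelled Htr2b_cKO 3 and lowest in Htr2b_cKO 4, and all 9 were higher in control 1 than in control 2. Lyz2, the lysozyme gene of myeloid cells, had 163 to 2515 CPM in Htr2b_cKO and 1327 and 370 CPM in control 1 and 2. The 8 fibroblast identity genes, summed, were lowest in the same libraries, at 75620 CPM in the library labelled Htr2b_cKO 3 and 90170 CPM in control 1, and at 111566 to 129581 CPM in the other 4. That sum is mostly Col1a1, Col1a2 and Col3a1, and the list was mixed, with 4 of its 8 genes lowest in the library labelled Htr2b_cKO 3 and 2 highest there. Those 2 were the proteoglycan genes Dcn (4881 CPM) and Lum (1549 CPM). The part of macrophage RNA in the spread of the resting markers was not tested. With the macrophage score as a covariate, an alternative chosen after seeing the data, the log2 fold changes ran from -0.21 to 0.41 and 0 of 10 passed. The SE was smaller than in the fit on genotype alone for every marker except Smoc2 (0.67 against 0.63). The change was large for Tcf21 (0.25 against 0.61) and small for Gsn (0.47 against 0.49), and its cause was not tested. The epicardial and mesothelial genes, summed, were at 259 to 349.6 CPM in Htr2b_cKO and at 348.5 and 431.5 CPM in control, and 1 of the 7 tested was highest in the library labelled Htr2b_cKO 3. The 5 adipocyte genes summed to under 1 CPM in every library.

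**Figure D3:**
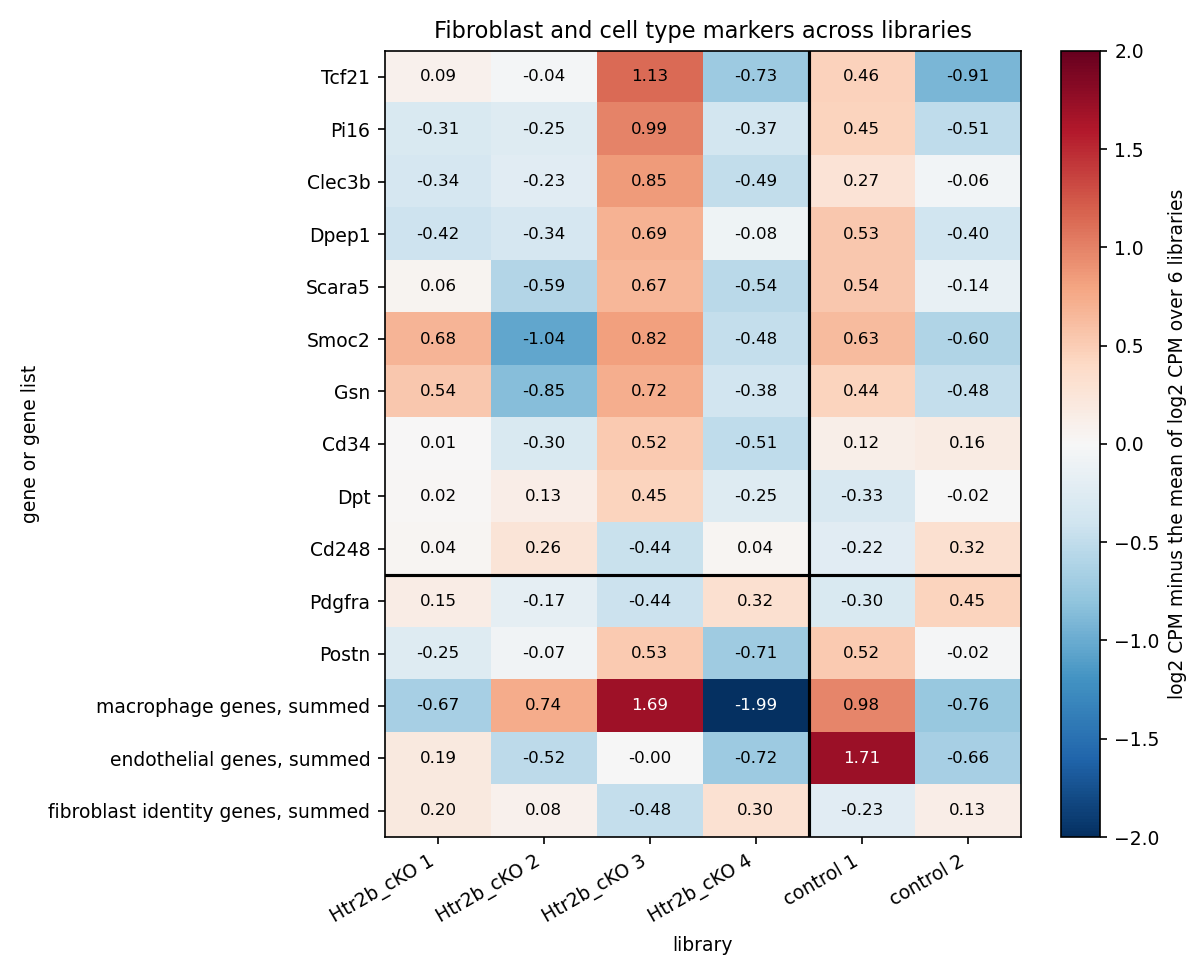
Log2 CPM of each marker, of Pdgfra and Postn, and of 3 summed cell type lists (rows), minus the row's mean over the 6 libraries (columns), with red for above and blue for below that mean. 8 rows of markers are at their reddest in the library labelled Htr2b_cKO 3 and above 0 in control 1, as is the macrophage row, while Cd248, Pdgfra and the summed fibroblast identity row, which is mostly collagen genes, are blue in both.

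Postn, the marker of activated fibroblasts, was highest in these same 2 libraries. It had 1349, 1526, 2310 and 981 CPM in Htr2b_cKO 1 to 4, against 2308 and 1585 CPM in control 1 and 2 (log2 difference -0.34, SE 0.33, edgeR adjusted p = 0.774). Only the Htr2b_cKO mice carry the Cre at Postn, so for Postn RNA its insertion and the deletion cannot be told apart. Among 16 activated fibroblast genes, 8 were highest in the library labelled Htr2b_cKO 3 and 5 were lowest in it. Fn1, the fibronectin gene, was among those 5, with 4917 CPM in the library labelled Htr2b_cKO 3 and 7218 CPM in control 1, against 8483 CPM or more in the other 4 libraries. Tnc, which encodes tenascin C, had 1836, 1046, 344 and 761 CPM in Htr2b_cKO 1 to 4, against 466 and 395 CPM in control 1 and 2 (log2 fold change 1.21, SE 0.63, edgeR adjusted p = 0.606). Comp, a cartilage matrix gene of mature scar fibroblasts, had 16.9 to 50.7 CPM in Htr2b_cKO and 16.5 and 15.8 CPM in control 1 and 2 (log2 difference 0.81, SE 0.47, adjusted p = 0.636 in the same edgeR fit). Of the 16, 0 were called, 11 were above 0, and the list's median was 0.17 (log2).

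The other genes known for the same states were also not called. Of 15 other adventitial and progenitor fibroblast genes, 0 passed in either direction, 9 were above 0 and 6 below, and the median log2 fold change was 0.08. In that list 7 of 15 were highest in the library labelled Htr2b_cKO 3. Its most abundant genes were Fbn1, which encodes the microfibril protein fibrillin 1, and the stem cell antigen gene Ly6a. Fbn1 had 2686 ± 312 CPM in Htr2b_cKO and 2396 ± 301 CPM in control. Ly6a had 484 ± 137 CPM in Htr2b_cKO and 527.5 ± 43.5 CPM in control. The smallest p values in the list were those of Gfpt2, a hexosamine pathway enzyme gene (log2 fold change -0.39, SE 0.21, edgeR adjusted p = 0.601), and the hyaluronan synthase gene Has1 (0.47, SE 0.28, adjusted p = 0.637).

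Of 17 other resting cardiac fibroblast genes, 0 passed, 11 were above 0 and 6 below, and the median was 0.10. In that list 5 of 17 were highest in the library labelled Htr2b_cKO 3 and 7 of 17 in Htr2b_cKO 4. Medag, a gene of fat cell development, was the 1 member of the list with an unadjusted p under 0.05. It had 228, 259, 252 and 270.2 CPM in Htr2b_cKO 1 to 4, against 194 and 201 CPM in control 1 and 2, so the groups did not overlap, as for 2 of the 17 and for 19.6% of all tested genes (log2 fold change 0.35, SE 0.14, edgeR adjusted p = 0.475). Fmo2, a flavin monooxygenase gene, had 25.7, 19.3, 35.9 and 44.9 CPM in Htr2b_cKO 1 to 4, against 19.95 and 17.7 CPM in control 1 and 2 (log2 fold change 0.74, SE 0.33, edgeR adjusted p = 0.539). The 2 most abundant members had close means. The basement membrane collagen gene Col15a1 had 1054 ± 156 CPM in Htr2b_cKO and 1066 ± 10.8 CPM in control, and the secreted glutathione peroxidase gene Gpx3 had 741 ± 51.5 CPM in Htr2b_cKO and 757 ± 47.3 CPM in control (SD, n = 4 and 2).

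**Figure D4:**
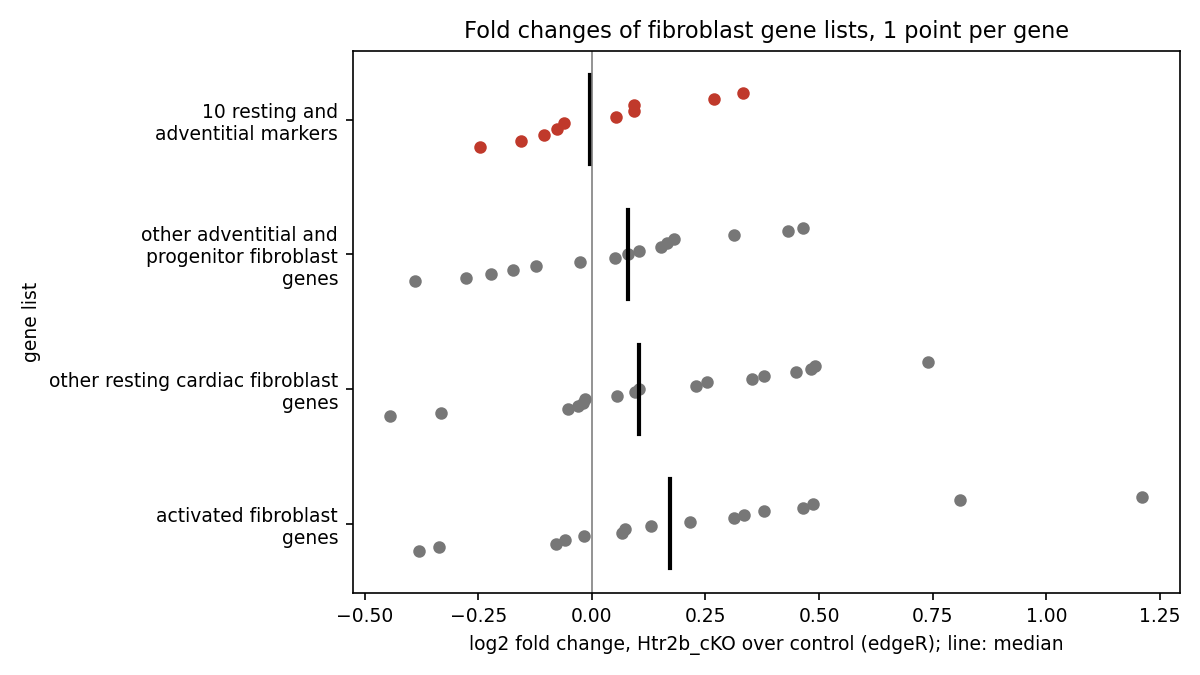
Log2 fold change of each gene, Htr2b_cKO over control, from the edgeR fit, for the 10 markers and 3 related lists, 1 point per gene with the list median as a line. The medians are -0.00452 for the 10 markers, 0.08 and 0.10 for the 2 other resting lists and 0.17 for the activated list, and no point passed the test.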

How the data were processed

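RNA was measured by total RNA sequencing in 6 libraries whose kit keeps strand, per the labels' protocols. The authors deposited estimated counts as whole numbers per Ensembl gene, not normalized, under column names that, per the file headers, end as a transcript quantifier's gene output does. A second table of the authors holds a normalized signal. Dividing it into the counts gives factors that vary by gene within a library (SD of their log2, 0.128 to 0.193). The submitters' processing notes list DRAGEN, DESeq2 and mm10 and state no version or role. How strand was handled in counting, and with which annotation, is not given in the sources used here; 7 of the 10 markers have an annotated overlapping gene.

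All 42256 identifiers were found in GENCODE M21 (same build), which gave symbols, positions, union exon lengths and GC content. Groups follow the genotype label. edgeR 4.0.16 in R 4.3.3 tested genotype alone on the counts (TMM, filterByExpr, robust quasi-likelihood F test, two-sided), with Benjamini-Hochberg adjustment over 15840 genes and calls at an adjusted p under 0.05. Each SE is the log2 fold change over the square root of F. CPM uses TMM-scaled totals, and a count of 0 allows up to 3 counts, 0.078 to 0.108 CPM, for counting error only. Alternatives used DESeq2 1.42.0, limma 3.58.1, other scalings, covariates and left-out libraries. As many animals as libraries stand in the series design, so libraries were treated as biological replicates. Named genes were the 10 markers, Htr2b, Postn and Pdgfra, from each related list the 2 genes with the smallest p and the 2 most abundant, and from marker lists the most abundant; not all are described. The markers and lists were chosen with earlier results of these data known. The test was checked on simulated data.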

Additional observations from a re-analysis of the deposited data

Results flagged for a closer look

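Within the 4 Htr2b_cKO libraries, 2 of the 10 markers had a library that stood far from the other 3, where chance would give about 5% of groups and 6.29% of all tested genes had such a library. The markers are not independent of each other, so their count was not set against that share. For 1.48% of all tested genes that library was the one labelled Htr2b_cKO 3, above the others. For Pi16 the gap between the library labelled Htr2b_cKO 3 (769.7 CPM) and the next library was 0.9455 of the group's whole range, and for Clec3b the gap of the library labelled Htr2b_cKO 3 (452 CPM) was 0.8685, both above Dixon's 95% critical value for 4 samples. In the same library the 9 macrophage genes summed to 4203 CPM, against 327 to 2164 CPM in the other Htr2b_cKO libraries, and the part of macrophage RNA in these 2 values was not tested.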

How the results depend on the processing

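No marker was called under any of the 17 alternatives, where the lowest adjusted p was 0.327 (Clec3b without the library labelled Htr2b_cKO 3), and 30 of 170 marker estimates lay on the other side of 0; except where stated, the cause was not tested. GC and length correction gave 0.065 for Dpep1, 0.082 for Cd248 and 0.22 for Clec3b, and 8 of 10 markers were above 0 (median 0.138). Scaling to fibroblast identity genes, which moves the median of all genes by construction to -0.12, gave -0.044 for Gsn, -0.0085 for Pi16 and -0.10 for Smoc2, and 2 of 10 markers were above 0. Sex as a covariate, which takes up the lone male library, gave 0.083 for Clec3b. Without both the library labelled Htr2b_cKO 3 and Htr2b_cKO 4 the estimates were -0.046 for Gsn, -0.33 for Pi16, 0.081 for Cd248 and -0.081 for Smoc2. Leaving out 1 library at a time gave ranges of -0.18 to 1.18 for Tcf21, -0.29 to 0.63 for Gsn, 0.12 to 0.44 for Dpt, -0.35 to 0.65 for Pi16, -0.49 to 0.43 for Dpep1, -0.32 to 0.23 for Cd248, -0.43 to 0.79 for Smoc2, -0.56 to 0.13 for Scara5, -0.46 to 0.11 for Clec3b and -0.38 to -0.02 for Cd34. The median of the 10 ran from -0.29 (without the library labelled Htr2b_cKO 3) to 0.28 (without control 1). Over all genes 3 were called, against 105 with DESeq2, 5 with no filter on low counts, 8 with sex as a covariate, 7 with the macrophage score as a covariate (added after seeing the data), 5 without both the library labelled Htr2b_cKO 3 and Htr2b_cKO 4, and 1 to 8 with 1 library left out (1 without control 1, 6 without control 2, 8 without Htr2b_cKO 4). No paired analysis was possible because the labels give no replicate numbers shared between the groups. With 2 control libraries, of which 1 is left where the other is dropped and is then assumed to vary like the rest, spread between libraries and not depth limits these comparisons.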

Other observations

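Set against Pdgfra in the same library, the values of every marker except Cd248 spread more widely than on the CPM scale. Those of Cd248 spread slightly less. Pdgfra, the divisor, was lowest in the library labelled Htr2b_cKO 3 (668 CPM) and next lowest in control 1 (732 CPM). In both of these libraries most markers were above their own mean. Pi16 was at 31.2%, 40.5%, 115% and 26.5% of the CPM of Pdgfra in Htr2b_cKO 1 to 4, and at 72.1% and 21.9% in control 1 and 2. Tcf21 was at 5.21%, 5.94%, 16.1% and 2.62% in Htr2b_cKO 1 to 4, and at 9.24% and 2.11% in control 1 and 2. Cd248 was the steadiest on this scale, at 47.6% to 77.6% in Htr2b_cKO and at 60.8% and 52.4% in control 1 and 2. These ratios are of CPM, not per length, and they were not tested.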
